A study of Mus musculus with 12 samples.

Results

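The 9 immediate early genes Fos, Fosb, Jun, Junb, Egr1, Ier2, Dusp1, Zfp36 and Nr4a1 were followed by name through the RNA of whole mouse bone marrow, out of 21853 protein-coding genes measured. All 9 were found, each by 1 gene identifier, and none was listed at 0 in any library. The marrow came from B6 mice in 4 groups of 3 libraries. The control group has no vehicle or gavage in its description. The TBI group received total body irradiation with 5 Gy of gamma rays at 0.66 Gy/min and 100 µL of olive oil by gavage. The TBI+DEIX group received the same irradiation and DEIX at 25 mg/kg by mouth once daily for 14 days, and the DEIX group received DEIX alone. The title of the study names deinoxanthin, a carotenoid of the radiation-resistant bacterium Deinococcus. Marrow of the irradiated mice was taken 14 days after exposure. The descriptions do not say whether DEIX was given in olive oil, how long after the last dose the marrow was taken, or at what time of day. Control and TBI mice therefore differ by the oil and gavage as well as by the irradiation, and these cannot be told apart. Nothing says whether the 3 libraries of a group came from separate mice, so p-values measure only the spread between these libraries, which may be technical.

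Immediate early genes are switched on within minutes of a signal without new protein synthesis, through kinases that act on factors already sitting at their promoters, such as SRF with its ELK partners and CREB. Several of their products are transcription factors that start a later wave of genes, and others shut the signal or the mRNA down again, so that transcript levels return within hours. In blood-forming tissue they respond to cytokines, inflammation, stress hormones and adhesion. They also respond to cooling, dissociation and delay between death and lysis, so that their level reports on tissue handling as well as on the animal.

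Promoter sequence from RefSeq (GRCm38.p6) was held for 7 of the 9 genes, not for Egr1 and Ier2. The 250 bases before the annotated start are given for 5 of them, 5′ to 3′ on the gene's own strand. Junb is shown because it was the member that passed a test. The other 4 are shown for comparison: Fos and Jun encode its AP-1 partners, and Dusp1 and Nr4a1 hold the full CRE and the most half-sites. Capitals mark the cyclic AMP response element (CRE) half-site TGACG, or CGTCA where it lies on the other strand, the full CRE TGACGTCA, which contains 2 half-sites, the related TGACATCA and the TATA box TATAAA. The windows are chr8:84978749-84978998 (minus strand), chr12:85473640-85473889 (plus), chr4:95052223-95052472 (minus), chr17:26508473-26508722 (minus) and chr15:101266596-101266845 (plus).
Junb: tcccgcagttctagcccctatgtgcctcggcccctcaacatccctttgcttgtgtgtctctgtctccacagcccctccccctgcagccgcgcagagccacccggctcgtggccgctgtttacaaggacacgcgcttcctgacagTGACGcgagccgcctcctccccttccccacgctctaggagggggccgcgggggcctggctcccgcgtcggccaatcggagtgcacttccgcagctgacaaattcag
Fos: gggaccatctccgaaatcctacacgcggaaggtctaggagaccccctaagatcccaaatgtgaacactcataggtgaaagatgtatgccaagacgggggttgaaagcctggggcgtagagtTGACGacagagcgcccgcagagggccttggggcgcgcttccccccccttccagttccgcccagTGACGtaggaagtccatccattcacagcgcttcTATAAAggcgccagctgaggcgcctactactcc
Jun: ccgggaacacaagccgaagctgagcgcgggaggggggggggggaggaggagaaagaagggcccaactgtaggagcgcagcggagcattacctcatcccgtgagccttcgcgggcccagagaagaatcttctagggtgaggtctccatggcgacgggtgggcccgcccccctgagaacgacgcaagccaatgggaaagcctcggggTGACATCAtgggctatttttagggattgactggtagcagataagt
Dusp1: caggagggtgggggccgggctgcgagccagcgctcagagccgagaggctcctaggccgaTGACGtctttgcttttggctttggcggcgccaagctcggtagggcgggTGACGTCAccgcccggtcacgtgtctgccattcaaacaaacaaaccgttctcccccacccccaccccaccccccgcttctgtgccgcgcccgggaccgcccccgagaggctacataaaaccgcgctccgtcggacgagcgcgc
Nr4a1: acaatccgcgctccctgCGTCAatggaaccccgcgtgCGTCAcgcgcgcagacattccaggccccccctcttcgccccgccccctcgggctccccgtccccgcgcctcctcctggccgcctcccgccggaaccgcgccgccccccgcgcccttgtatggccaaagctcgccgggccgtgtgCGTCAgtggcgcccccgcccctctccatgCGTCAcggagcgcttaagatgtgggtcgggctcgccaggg

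The half-site, searched on both strands, was found in 5 of the 7 windows (Fos, Fosb, Junb, Dusp1 and Nr4a1) and in 17.8% of the windows of the same length before all 32851 starts in the table. Nr4a1 held 4 copies, Fos 2 and Junb 1, at bases −106 to −102 counted back from the start. Dusp1 held a full CRE at −143 to −136, an element present before 1.55% of all starts. The form TGACATCA, searched on both strands, stood at −45 to −38 of Jun and before 2.93% of all starts. The CArG box, the binding sequence of SRF, was found in the Zfp36 window only, and before 1.47% of all starts. TATAAA occurred in the Fos window only, and before 7.59% of all starts. The AP-1 sequence TGANTCA was in none of the 7 windows and before 6.75% of all starts, and the GC box GGGCGG was in 6 of 7 and before 32.7%. The motifs and the windows shown were chosen with the sequences in view, and a match describes letters in this window only.

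Whole marrow mixes many cell types, and the libraries differed in makeup. Markers of every lineage listed were detected, and no marker was at 0 in all libraries of a group. Summed FPKM, which counts fragments per length of transcript and relative to library size, ranged from 493683 to 848843 per library. The neutrophil genes S100a8, S100a9 and Ngp were listed at 0 in some libraries and made up to 26.4% of the sum in others. An exact 0 in such a table can be a failed estimate, so these 0s were not read as low expression, and any rescaling to an equal sum carries them. TBI+DEIX replicate 1 stood apart: in a principal component analysis of the tested genes it lay at 53.3 on the first component, while the other 11 libraries lay between −33.2 and 21.5. In that library the 9 erythroid markers summed to 230 FPKM, against 485 and 1820 in the other TBI+DEIX libraries and 3700 to 5834 in controls. Its 9 B lineage markers summed to 6.63 FPKM, against 72.2 and 179 in the other TBI+DEIX libraries and 385 to 464 in controls. Its 12 monocyte and macrophage markers summed to 882 FPKM, against 2083 and 2756 in the other 2. Results are therefore given with and without this library where it changes them. In bulk RNA, fewer cells of a type and less RNA per cell cannot be told apart.

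The 9 genes spanned a wide range of abundance on the FPKM scale, which is per length of transcript and so allows genes to be compared. Averaged over the 12 libraries, Ier2 was the highest at 68.8 FPKM, rank 1220 of 21853 genes. Zfp36 followed at 64.5, Junb at 44.3 and Dusp1 at 29.4. Fos at 8.40, Nr4a1 at 6.67 and Jun at 4.20 were intermediate, Egr1 stood at 1.54 (rank 10185), and Fosb was near the bottom at 0.147 (rank 12583). Fosb stayed under 1 FPKM in every library and was not tested, so tests cover 8 of the 9 members.

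**Figure D1:**
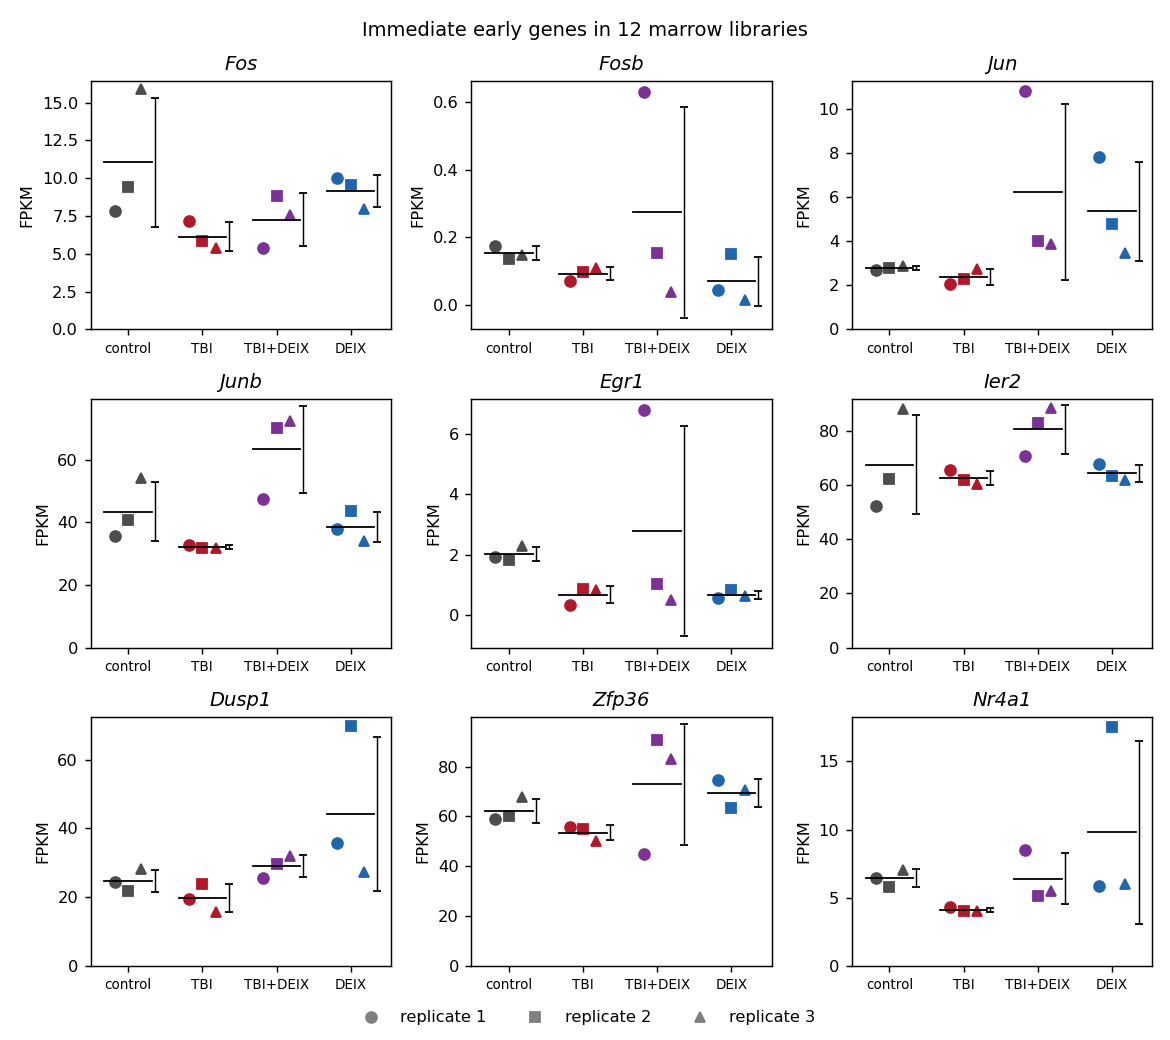
FPKM of the 9 immediate early genes in 12 marrow libraries, with 1 panel per gene and a linear vertical axis. Points are libraries, shaped by replicate number, horizontal lines are group means and vertical bars are 1 SD (n = 3). In the TBI+DEIX group replicate 1 (circle) is the highest point for Fosb, Jun, Egr1 and Nr4a1 and the lowest for the other 5 genes.

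Junb changed most clearly. It encodes a Jun family subunit of the AP-1 transcription factor and is known as a restraint on myeloid progenitor growth. The gene (ENSMUSG00000052837.6) lies at chr8:84974484-84978718 on the minus strand of GRCm38. Its level was 35.6, 40.7 and 54.1 FPKM in control replicates 1 to 3, and 32.7, 31.9 and 31.7 in TBI. In TBI+DEIX it was 47.4, 70.1 and 72.4, and in DEIX 37.7, 43.5 and 34.1. All 3 TBI+DEIX libraries lay above all 3 TBI libraries, whereas TBI+DEIX and control overlapped because control replicate 3 exceeded TBI+DEIX replicate 1. TBI libraries lay below every library of the other 3 groups.

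Between TBI+DEIX and TBI, Junb rose by 0.93 ± 0.18 (SE) on the log2(FPKM + 1) scale, from a mean of 32.1 ± 0.540 FPKM to 63.3 ± 13.8 FPKM (SD, n = 3 each; limma, adjusted p = 0.0198 over 10994 genes). It was the only 1 of 8 tested members called at an adjusted p under 0.05, where 8.10% of all tested genes were called. All 8 tested members had a positive estimate in this comparison, with a median of 0.53 against 0.0032 over all tested genes, and this sign held for all 8 in every alternative analysis that tested them. For Jun, Junb, Ier2, Dusp1 and Nr4a1 (5 of 8) the 3 TBI+DEIX libraries all exceeded the 3 TBI libraries, which held for 14.5% of all tested genes. The Junb call was lost when the fit used only these 6 libraries (adjusted p = 0.144) or values rescaled to an equal sum per library (0.0558). It was also lost on leaving out replicate 3 of TBI (0.0955) or of TBI+DEIX (0.0689). Without TBI+DEIX replicate 1 the Junb estimate was 1.13 (limma, adjusted p = 0.00319), and Zfp36 was called as well, at 0.69 (adjusted p = 0.00377), in a fit that called 25.8% of all tested genes.

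Against control, Junb in TBI+DEIX was higher by 0.53 ± 0.18 (limma, adjusted p = 0.0461). Here too 1 of 8 members was called, but 30.0% of all tested genes were. The call was lost in 13 of 21 alternative analyses, with adjusted p from 1.37e-05 to 0.179. Jun was the only 1 of 8 members whose libraries did not overlap between these groups, against 44.9% of all tested genes in either direction. Of the 8 estimates 5 were positive and 3 negative, with a median of 0.19 against 0.02 over all tested genes. Without TBI+DEIX replicate 1, limma called 3 members: Junb, Zfp36 (0.47, adjusted p = 0.00418) and Egr1 (−0.78, adjusted p = 0.00584). In that fit 38.5% of all tested genes were called.

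**Figure D2:**
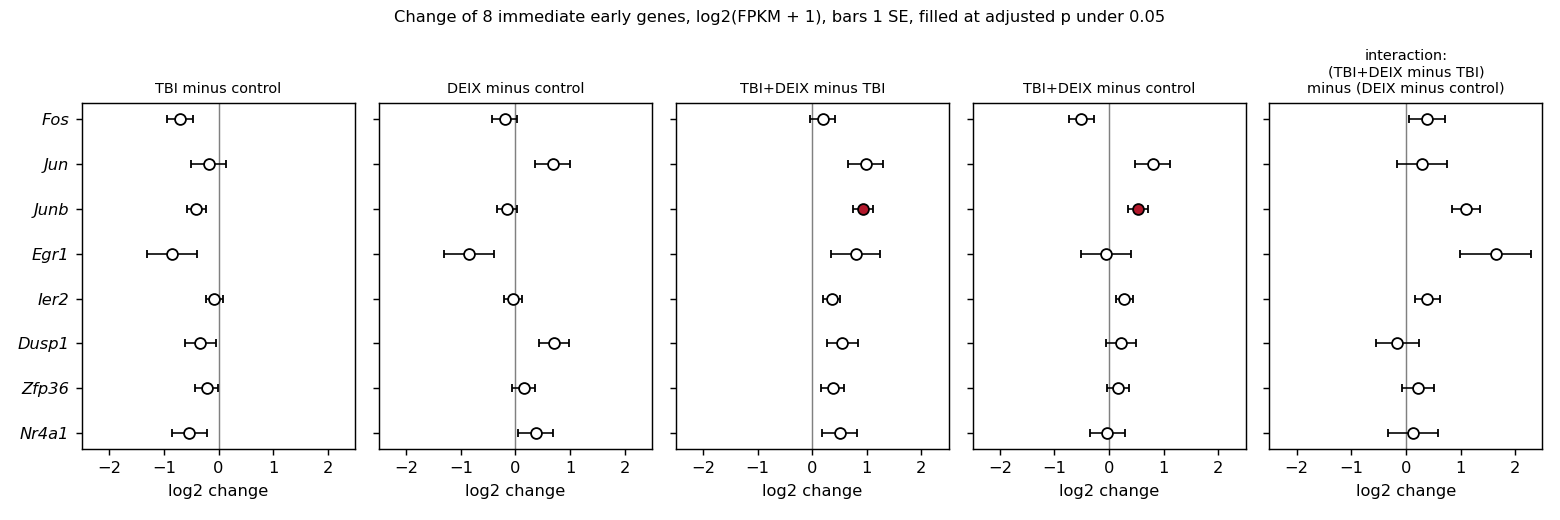
Estimated change of the 8 tested immediate early genes in 5 comparisons, on the log2(FPKM + 1) scale. Circles are limma estimates from 12 libraries, bars are 1 SE, and filled circles have an adjusted p under 0.05. Junb is filled in the comparisons of TBI+DEIX with TBI (0.93) and with control (0.53), and all 8 genes lie left of 0 in TBI minus control.

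The other Jun and Fos family members are the partners with which Junb forms AP-1. Fos (ENSMUSG00000021250.13, chr12:85473890-85477273, plus strand) was 7.82, 9.42 and 15.9 FPKM in control replicates 1 to 3. It was 7.19, 5.85 and 5.39 in TBI, 5.37, 8.81 and 7.58 in TBI+DEIX, and 10.0, 9.54 and 7.94 in DEIX. Every TBI library lay below every control library, and control replicate 3 was far above the rest. The TBI estimate for Fos was −0.70 ± 0.23 (limma, adjusted p = 0.132), and leaving out a library of any group gave estimates from −0.90 to −0.43. It was called without TBI+DEIX replicate 1 (limma, adjusted p = 0.0493), in a fit that called 12.2% of all tested genes.

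Jun, the founding member of the family (ENSMUSG00000052684.4, chr4:95049034-95052222, minus strand), was tight in control at 2.72, 2.81 and 2.91 FPKM and was 2.06, 2.29 and 2.77 in TBI. In TBI+DEIX it was 10.9, 4.01 and 3.88, and in DEIX 7.85, 4.78 and 3.47. Both DEIX-treated groups thus lay wholly above control and TBI, with replicate 1 highest in each. The estimates were 0.68 ± 0.32 for DEIX over control (limma, adjusted p = 0.216), 0.98 ± 0.32 for TBI+DEIX over TBI (adjusted p = 0.0793) and 0.80 ± 0.32 for TBI+DEIX over control (adjusted p = 0.0830). These comparisons share their control, TBI or TBI+DEIX libraries. Without TBI+DEIX replicate 1 the latter 2 were 0.56 (limma, adjusted p = 0.0843) and 0.38 (adjusted p = 0.202). Jun in DEIX over control was called without that library (limma, adjusted p = 0.0338), in a fit that called 21.8% of all tested genes. Without DEIX replicate 1 the estimate for DEIX over control was 0.42. Fosb (ENSMUSG00000003545.3, chr7:19302696-19310051, minus strand) stayed between 0.0143 and 0.175 FPKM in 11 libraries and was 0.628 in TBI+DEIX replicate 1.

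Egr1, a zinc finger factor that holds stem cells in quiescence and is induced by growth signals, set control apart from most other libraries. The gene (ENSMUSG00000038418.7) lies at chr18:34859823-34864984 on the plus strand. Its level was 1.94, 1.85 and 2.28 FPKM in control, 0.349, 0.874 and 0.837 in TBI, and 0.562, 0.834 and 0.643 in DEIX. In TBI+DEIX it was 6.78, 1.05 and 0.520. Outside control, TBI+DEIX replicate 1 was the only library above 1.05 FPKM. In the fit of 12 libraries the estimates were −0.86 ± 0.46 for TBI (limma, adjusted p = 0.356) and −0.85 ± 0.46 for DEIX (adjusted p = 0.279), both against the same control libraries. Without TBI+DEIX replicate 1, whose value enters the shared spread, limma called both, with adjusted p of 0.00624 and 0.00559, and 12.2% and 21.8% of all tested genes. With only the 6 libraries compared, limma also called both, with adjusted p of 0.00837 and 0.00232, and 12.9% and 18.7% of all tested genes. Egr1 reached 1 FPKM in the 3 control libraries and 2 TBI+DEIX libraries and in none of TBI or DEIX, so it entered the test through groups where it was high. At these levels the added 1 FPKM makes the log2 scale understate the change.

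Nr4a1, an orphan nuclear receptor, was 6.45, 5.75 and 7.06 FPKM in control and 4.27, 3.99 and 4.03 in TBI. It was 8.51, 5.10 and 5.51 in TBI+DEIX and 5.84, 17.5 and 6.004 in DEIX. The gene (ENSMUSG00000023034.7) spans chr15:101254269-101274795 on the plus strand. All 9 libraries outside the TBI group exceeded the 3 TBI libraries, and DEIX replicate 2 was the highest of all. The estimate for TBI was −0.54 ± 0.32 (limma, adjusted p = 0.412). It was called with only the 6 libraries compared (limma, adjusted p = 0.00951), in a fit that called 12.9% of all tested genes.

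Dusp1 and Zfp36 encode brakes on the same signals. The Dusp1 phosphatase inactivates p38, JNK and ERK kinases, and the Zfp36 protein, tristetraprolin, binds AU-rich mRNAs and speeds their decay. Dusp1 (ENSMUSG00000024190.7, chr17:26505590-26562128, minus strand) was 24.3, 21.8 and 28.1 FPKM in control, 19.4, 23.8 and 15.7 in TBI, 25.5, 29.6 and 31.9 in TBI+DEIX, and 35.8, 69.7 and 27.2 in DEIX. DEIX replicate 2 was again the highest, and DEIX and control overlapped. The DEIX estimate was 0.71 ± 0.28 (limma, adjusted p = 0.144) and ranged from 0.33 to 0.99 when 1 library was left out. Without DEIX replicate 2 it was the lower of these.

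Zfp36 (ENSMUSG00000044786.6, chr7:28376784-28380253, minus strand) was 59.0, 60.1 and 67.8 FPKM in control, 55.7, 54.8 and 50.1 in TBI, 45.0, 90.6 and 83.0 in TBI+DEIX, and 74.5, 63.4 and 70.6 in DEIX. All TBI libraries lay below all control libraries, and TBI+DEIX held both the lowest and the highest value. Its estimates were −0.21 ± 0.21 for TBI (limma, adjusted p = 0.638) and 0.38 ± 0.21 for TBI+DEIX over TBI (adjusted p = 0.278). Ier2, a small nuclear protein, was 52.4, 62.3 and 88.0 FPKM in control, 65.5, 62.0 and 60.3 in TBI, 70.7, 83.0 and 88.3 in TBI+DEIX, and 67.7, 63.2 and 61.9 in DEIX. The gene (ENSMUSG00000053560.4) lies at chr8:84661331-84662852 on the minus strand. Control spanned nearly the whole range of Ier2, and TBI+DEIX lay wholly above TBI, with an estimate of 0.36 ± 0.16 (limma, adjusted p = 0.183). The spans of Dusp1, Zfp36 and Nr4a1 in GENCODE reach upstream of the RefSeq starts used for the windows above.

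After irradiation with oil, none of the 8 tested members was called against control, where 3.99% of all tested genes were called. The unadjusted limma p of Fos (0.0108) and Junb (0.0464) was under 0.05, as it was for 1988 of the 10994 genes. All 8 estimates were negative, with a median of −0.37 against 0.05 over all tested genes. For Fos, Junb, Egr1, Zfp36 and Nr4a1 (5 of 8) the TBI libraries all lay below the control libraries, which held for 16.3% of all tested genes, and Fosb did so too. Egr1 reached 1 FPKM in no TBI library and passed the filter through control and TBI+DEIX libraries, so it counts here partly because of its level in control. The sign changed for Ier2 without control replicate 3 (0.13) and for Dusp1 with weighted libraries (0.07). The fit of the 6 libraries alone called Egr1 and Nr4a1 and 12.9% of all tested genes, and the fit without TBI+DEIX replicate 1 called Egr1 and Fos and 12.2%.

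DEIX alone against control also gave 0 of 8 calls, against 7.24% of all tested genes. At an unadjusted p under 0.05, Dusp1 passed (0.0270), among 2718 genes. The estimates divided into 4 positive and 4 negative, with a median of 0.06 against 0.02 over all tested genes. Jun (higher) and Egr1 (lower) were the 2 of 8 members whose libraries did not overlap, against 40.6% of all tested genes in either direction. Rescaling every library to an equal sum moved the median of all tested genes in this comparison to −0.12, and left 4 members on each side.

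The difference between the DEIX effect in irradiated and in unirradiated mice was called for 0 of 8 members and for 0.200% of all tested genes. The largest interaction estimates were 1.64 ± 0.64 for Egr1 (limma, adjusted p = 0.572) and 1.09 ± 0.26 for Junb (adjusted p = 0.142). Unadjusted, these 2 were under 0.05 (0.0267 and 0.00127), among 825 genes. Without TBI+DEIX replicate 1 the estimate of Egr1 was 0.93 (limma, adjusted p = 0.0615), and Junb was called at 1.28 (adjusted p = 0.00660). That fit called 3.01% of all tested genes. Junb was also called on the scale of equal sums without S100a8, S100a9 and Ngp (1.04, limma, adjusted p = 0.0465), where 0.255% of all tested genes were called. With weighted libraries it was called too (1.26, limma, adjusted p = 0.000258), but so were 10.4% of all tested genes. The weights, from 0.0498 for TBI+DEIX replicate 1 to 97.5 for control replicate 2, had not converged.

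The order of groups differed between members. The TBI group had the lowest mean for Fos, Jun, Junb, Ier2, Dusp1, Zfp36 and Nr4a1. TBI+DEIX had the highest mean for Fosb, Jun, Junb, Egr1, Ier2 and Zfp36, control for Fos, and DEIX for Dusp1 and Nr4a1. With TBI+DEIX replicate 1 left out, the TBI+DEIX mean was 0.0965 for Fosb and 0.783 for Egr1, below control, and 3.95 for Jun, below DEIX. Without DEIX replicate 2 the DEIX mean of Nr4a1 was 5.92, below the control mean of 6.42. Without control replicate 3 the control mean was 8.62 for Fos, below DEIX, and 57.3 for Ier2, below TBI. Without TBI+DEIX replicate 2 or 3 the TBI+DEIX mean of Zfp36 was 64.0 or 67.8, below DEIX at 69.5. Many neighbours in these orders were closer than their spread: for Ier2 the control SD of 18.4 was larger than any gap between the means of control (67.5), DEIX (64.3) and TBI (62.6). For Egr1 the TBI and DEIX means were 0.687 and 0.680 FPKM. For Junb the mean of TBI+DEIX (63.3) exceeded that of control (43.5) by more than either SD, although their libraries overlapped.

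Within groups, single libraries were extreme for several members. In control, replicate 3 was the highest of the group for 8 of 9 members. In TBI+DEIX, replicate 1 was the highest for Fosb, Jun, Egr1 and Nr4a1 and the lowest for Fos, Junb, Ier2, Dusp1 and Zfp36. In DEIX, replicate 2 was the highest for Fosb, Junb, Egr1, Dusp1 and Nr4a1. The mean of the 8 tested members, each centred on its own average over the 12 libraries, was −0.10, −0.05 and 0.27 in control and −0.38, −0.33 and −0.41 in TBI. It was 0.33, 0.18 and 0.12 in TBI+DEIX and 0.13, 0.35 and −0.11 in DEIX, on the log2(FPKM + 1) scale. The TBI libraries were the lowest 3 on this mean, and each of the other groups was wider than TBI.

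Beside these libraries the makeup of the marrow also moved, and its part in the members' levels was not tested. DEIX replicate 2, highest for Dusp1 and Nr4a1, had erythroid markers summing to 9053 FPKM against 1778 and 1507 in the other DEIX libraries. TBI replicate 1 had the highest erythroid sum of all libraries (9216), with Dusp1 at 19.4 and Nr4a1 at 4.27 FPKM. TBI+DEIX replicate 1 had the lowest (230), with the highest Nr4a1 (8.51) and the lowest Dusp1 (25.5) of its group. Control replicate 3 had the highest erythroid sum of its group (5834) and the highest sum of the 9 other neutrophil markers (30288, against 21635 and 24632), while S100a8, S100a9 and Ngp were listed at 0. The 6 megakaryocyte and platelet markers summed to 23.3 to 43.9 FPKM in TBI and 21.6 to 38.7 in TBI+DEIX, against 106 to 163 in control and 59.5 to 99.4 in DEIX. The 7 stem and progenitor markers summed to 30.0 to 31.3 FPKM in TBI, 23.3 to 36.2 in TBI+DEIX, 61.1 to 62.6 in control and 45.5 to 64.6 in DEIX. All 9 erythroid markers lay lower in TBI+DEIX than in TBI without overlap, which held for 12.7% of all tested genes. Their median change was −2.64 against 0.0032 over all tested genes, and 3 of 9 were called, against 8.10%. The 9 neutrophil markers other than S100a8, S100a9 and Ngp summed to 31476, 28808 and 25388 FPKM in TBI and 20504, 52239 and 50174 in TBI+DEIX, where the lowest sum fell in the library lowest for Junb.

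**Figure D3:**
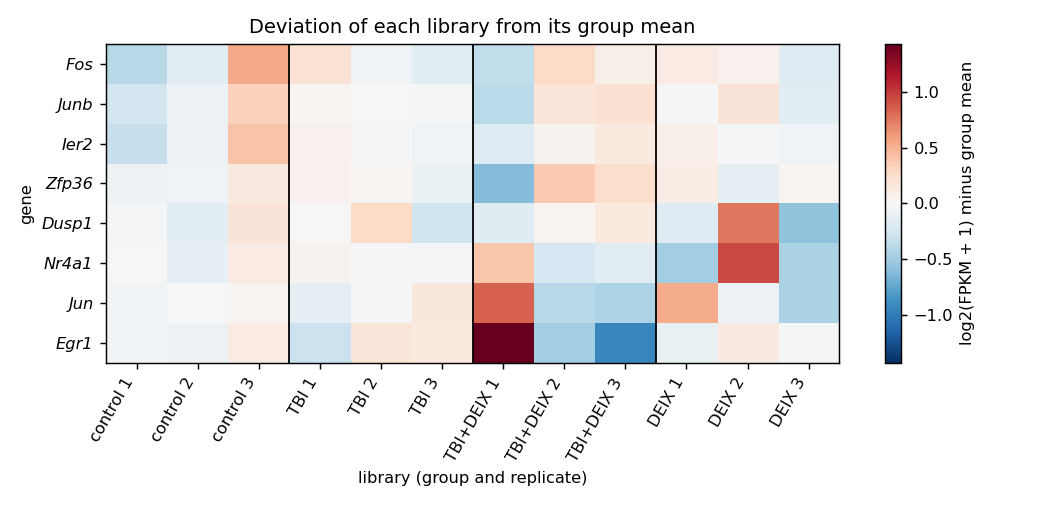
Deviation of each library from the mean of its own group for the 8 tested immediate early genes, as a colour from blue (below) to red (above) on the log2(FPKM + 1) scale. Rows are genes, columns are libraries and vertical lines part the groups. Control 3 lies above its group mean in every row, faintly for Jun, and in TBI+DEIX 1 the rows Jun, Egr1 and Nr4a1 are red while the other 5 are blue.

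After subtracting group means, 28 pairs of members were compared over the 12 libraries by two-sided exact permutation within groups (1296 relabellings). No pair passed after adjustment over the 28. Fos and Ier2 were the closest, with a Pearson r of 0.93 (exact permutation p = 0.00617, adjusted 0.0900) and a Spearman rho of 0.90 (exact permutation p = 0.00540, adjusted 0.108). Without the 2 libraries farthest from the median of Fos, control replicates 1 and 3, r was 0.85. Fos and Junb gave r = 0.88 (exact permutation p = 0.0100, adjusted 0.0900) and rho = 0.83 (p = 0.0231, adjusted 0.130), with r = 0.81 without the same 2 libraries. Egr1 and Zfp36 ran opposite, with r = −0.90 (exact permutation p = 0.159, adjusted 0.371) and rho = −0.73 (p = 0.0679, adjusted 0.272), and r was −0.71 without TBI+DEIX replicates 1 and 3. The r of 0.72 between Dusp1 and Nr4a1 (exact permutation p = 0.240, adjusted 0.415, with rho = 0.43, p = 0.315, adjusted 0.551) rested on DEIX replicates 2 and 3, without which it was 0.07.

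Of the genes outside the 9, the one most like their mean over the 12 libraries was Klf2 (Pearson r = 0.94, Spearman rho = 0.82), which ranged from 50.7 to 110 FPKM. Tnfrsf4 (r = 0.93), Slc25a28 (0.91), Nudt16 (0.88) and Chkb (0.87) followed. Once group means were subtracted, Tnfrsf4 was first (0.94), followed by Zfp560 (0.93), Trp53rkb (0.92), Alkbh1 (0.91) and Mcrip1 (0.90), so Klf2 was no longer among the first 5. These are descriptions picked as the highest of all tested genes, over libraries that share their groups.

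Other immediate early transcription factors were described from a list of 21 genes, of which 15 were tested. In TBI+DEIX over TBI, 3 rose and 1 fell, where 8.10% of all tested genes were called, and the list median was 0.36 against 0.0032 over all tested genes. Klf2, a Krüppel-like factor of lymphocytes and endothelium, was 56.6, 50.7 and 50.9 FPKM in TBI and 110, 99.7 and 99.3 in TBI+DEIX, with a change of 0.96 ± 0.13 (limma, adjusted p = 0.0108). In control it was 70.4, 74.3 and 96.5, and it fell in TBI by 0.59 ± 0.13 (adjusted p = 0.0344). All 3 TBI libraries were thus below, and all 3 TBI+DEIX libraries above, every other library. The fall in TBI was lost in 11 of 21 alternative analyses, among them rescaling to an equal sum (adjusted p = 0.308) and leaving out any 1 control or TBI library. Klf6 rose by 0.58 (adjusted p = 0.0196) and Csrnp1 by 0.53 (adjusted p = 0.0480). Klf4, a Krüppel-like factor of monocytes, fell by 0.89 (limma, adjusted p = 0.0434), from 23.0, 13.9 and 13.6 FPKM in TBI to 5.35, 9.37 and 11.5 in TBI+DEIX. The calls of Klf2, Klf6, Csrnp1 and Klf4 in TBI+DEIX over TBI were lost in 3, 5, 17 and 14 of 21 alternative analyses. Rescaling to an equal sum lost those of Klf2 (limma, adjusted p = 0.0811) and Klf6 (adjusted p = 0.252). None of the 4 was called with only the 6 libraries compared, and without TBI+DEIX replicate 1 the list held 7 that rose and 1 that fell. Over all tested genes these fits called 0 genes and 25.8%.

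In TBI against control 2 of these 15 fell and none rose, where 3.99% of all tested genes were called. They were Klf2 and Egr3, which is a relative of Egr1. Egr3 was 1.43, 1.22 and 1.47 FPKM in control, 0.0915, 0.190 and 0.220 in TBI, and 0.294, 0.471 and 0.493 in DEIX. In TBI+DEIX it was 1.16, 0.334 and 0.290, so that replicate 1 was again nearest to control, as it was above control for Egr1. Egr3 fell by 1.03 ± 0.18 in TBI (limma, adjusted p = 0.00927) and by 0.74 ± 0.18 in DEIX (adjusted p = 0.0324), both against the same control libraries. The TBI and DEIX calls were lost in 2 and 11 of 20 alternative analyses, in TBI without control replicate 1 or 3. Like Egr1, it reached 1 FPKM in no TBI or DEIX library, but in the 3 control libraries and TBI+DEIX replicate 1, so it entered the test through the group where it was high. In DEIX against control it was the only gene of the list to fall, and Klf6 the only one to rise (0.67, limma, adjusted p = 0.00813), where 7.24% of all tested genes were called. That Klf6 call was lost on rescaling to an equal sum (adjusted p = 0.193) and without control replicate 2. In TBI+DEIX against control Klf6, Bhlhe40 and Cebpb rose and Egr3 and Klf4 fell, 5 of 15 where 30.0% of all tested genes were called. The calls of Egr3, Cebpb and Bhlhe40 were lost in 9 of 20, 7 of 21 and 6 of 21 alternative analyses.

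The feedback and effector list held 30 genes, with 23 tested. In TBI against control 2 fell and none rose, where 3.99% of all tested genes were called. Dusp2, a nuclear phosphatase of ERK and p38, was 15.2, 14.6 and 19.6 FPKM in control, 1.98, 5.60 and 5.49 in TBI, 3.22, 3.89 and 2.40 in TBI+DEIX, and 4.15, 5.77 and 4.51 in DEIX. All 9 treated libraries lay below control, with changes of −1.78 ± 0.28 for TBI (limma, adjusted p = 0.00510), −1.59 for DEIX (adjusted p = 0.00960) and −2.07 for TBI+DEIX (adjusted p = 0.000516), which share the control libraries. Dusp5, the nuclear ERK phosphatase, had 6.60 to 7.16 FPKM in control and 1.55 to 4.16 in the 9 other libraries, and it too fell in all 3 comparisons. Its TBI and DEIX calls were lost in 5 and 4 of 20 alternative analyses, among them leaving out any 1 control library. Lymphocyte markers moved in the same comparisons, and their part in these falls was not tested. The 9 B lineage markers were all lower than control in TBI, DEIX and TBI+DEIX, with medians of −1.64, −2.38 and −3.02 and sums of 28.7 to 357, 58.5 to 92.5 and 6.63 to 179 FPKM against 385 to 464. The 9 T and NK markers were all lower too, with medians of −0.81, −0.60 and −0.75 and sums of 104 to 143, 139 to 194 and 57.4 to 150 FPKM against 171 to 207. The phosphatases Dusp2 and Dusp5 were thus low in every treated group, and Dusp1, their relative among the 9 members, was not called in any of these comparisons.

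In TBI+DEIX over TBI, 5 of 23 feedback and effector genes rose and none fell, where 8.10% of all tested genes were called, with a list median of 0.19 against 0.0032 over all tested genes. Socs3, the inhibitor of gp130 and G-CSF receptor signalling, was 5.67, 4.75 and 4.02 FPKM in TBI and 28.8, 18.1 and 19.8 in TBI+DEIX, a change of 1.98 ± 0.22 (limma, adjusted p = 0.00411). It was 4.65, 6.16 and 6.49 in control and 22.3, 14.8 and 12.9 in DEIX, and also rose there (1.36, adjusted p = 0.00753). Both DEIX groups lay wholly above both groups without DEIX. The other 4 were Ier3 (0.76, limma, adjusted p = 0.0231), Zfp36l1 (0.68, adjusted p = 0.0206), Tiparp (0.54, adjusted p = 0.0331) and Nfkbiz (0.51, adjusted p = 0.0217). Zfp36l1 is a relative of Zfp36, and Nfkbiz encodes a nuclear cofactor of NF-κB. These 4 calls were also lost on rescaling to an equal sum (adjusted p from 0.105 to 0.385) and on leaving out replicate 3 of either group. With only the 6 libraries compared none of the 5 was called, and without TBI+DEIX replicate 1, where 25.8% of all tested genes were called, the list held 14 that rose. The fit of 6 libraries called 0 genes in all. In DEIX against control Socs3, Nfkbiz and Rhob rose and Dusp2 and Dusp5 fell, 5 of 23 where 7.24% of all tested genes were called, but the calls of Nfkbiz and Rhob were lost in 16 and 9 of 21 alternative analyses, with adjusted p up to 0.592 and 0.255.

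**Figure D4:**
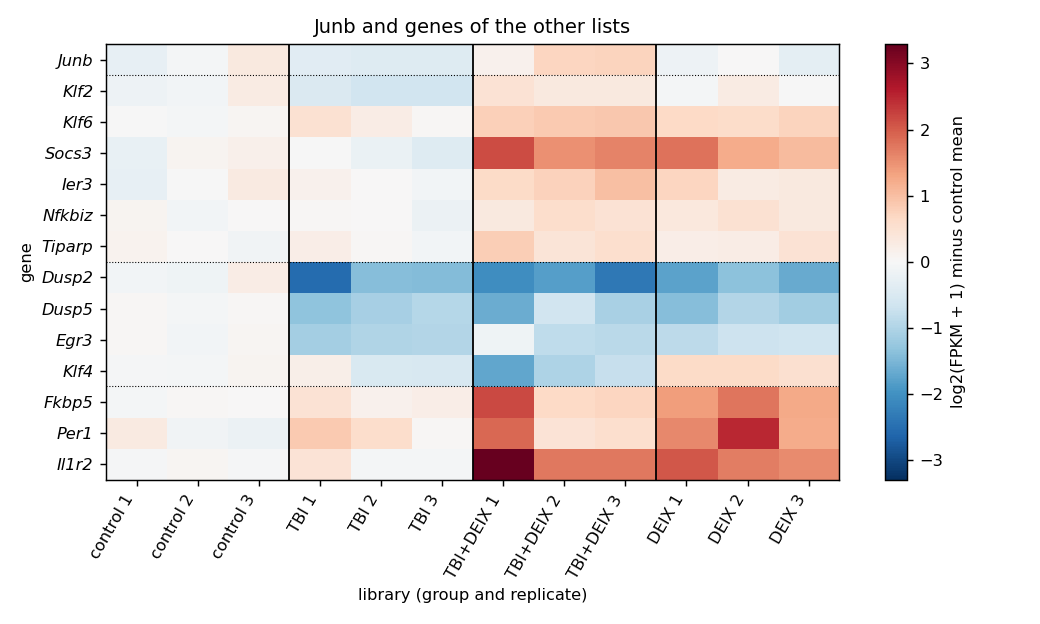
Junb and 13 genes of the other lists in 12 libraries, as the difference of log2(FPKM + 1) from the control mean, in colour from blue (below) to red (above). Rows are genes, chosen after their values were seen, columns are libraries, vertical lines part the groups and dotted lines part blocks of genes. Dusp2 and Dusp5 are blue in all 9 treated libraries, while Socs3 and Il1r2 are red in all 6 libraries with DEIX.

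The kinases and promoter-bound factors that relay signals to these genes were described from 27 genes, all tested. At most 2 of 27 were called in TBI, in DEIX and in TBI+DEIX over TBI, where 3.99%, 7.24% and 8.10% of all tested genes were. The kinase Map2k4, which activates JNK, rose in every comparison with control: by 0.41 in TBI (limma, adjusted p = 0.0464), 0.54 in DEIX (adjusted p = 0.0126) and 0.82 in TBI+DEIX (adjusted p = 0.000396). The TBI call was lost in 16 of 21 alternative analyses, with adjusted p from 6.43e-06 to 0.413, and the DEIX call in 6 of 21, with adjusted p up to 0.300. Map2k4 was the only gene of the list called in TBI and in TBI+DEIX over TBI, and with DEIX the kinase gene Rps6ka1 rose as well, a call lost in 10 of 21 alternative analyses. The Map2k4 call in TBI+DEIX over TBI was lost in 12 of 21. In TBI+DEIX against control 7 of 27 rose and 2 fell, a share near the 30.0% of all tested genes called. Among them were Srf (0.57, limma, adjusted p = 0.0138) and its coactivator gene Mrtfa (0.62, adjusted p = 0.00750), which rose, and Elk3 (−0.58, adjusted p = 0.0166), which fell. These 3 calls were lost in 4, 1 and 2 of 21 alternative analyses. Of 15 tested genes for AP-1 partners outside the 9 members, limma called 0 in TBI and 0 in TBI+DEIX over TBI, where 3.99% and 8.10% of all tested genes were called. At an unadjusted p under 0.05 were 3 and 4 of the 15, and 1988 and 2986 of all 10994 tested genes. Mafg rose with DEIX, and Jdp2, Mafg and Nfe2 rose in TBI+DEIX against control, with the Nfe2 call lost in 12 of 21 alternative analyses.

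Because the members also report on handling, genes of the heat shock response, which heat and dissociation induce, were examined in the same libraries. None of 12 tested genes of 15 listed was called in any of the 5 comparisons (limma, adjusted p under 0.05), where 3.99% (TBI), 7.24% (DEIX), 8.10% (TBI+DEIX over TBI), 30.0% (TBI+DEIX over control) and 0.200% (interaction) of all tested genes were called. In TBI against control, 1 gene rose when TBI replicate 1 was left out, and with weighted libraries, where 63.8% of all tested genes were called, 6 rose and 1 fell. At an unadjusted p under 0.05 limma passed Hspd1 in TBI, Bag3 in DEIX, and Dnajb1 and Dnajb4, both lower, in TBI+DEIX over TBI. The list medians were 0.17 in TBI, −0.09 in DEIX and 0.07 in TBI+DEIX against control, and −0.24 in TBI+DEIX over TBI, the reverse of the sign of the members. The strongly inducible Hspa1a stayed between 0.124 and 0.699 FPKM and Hspa1b between 0.383 and 2.58 FPKM in all libraries. Hspa1a and Hspa1b are near-identical copies, so reads may be split between them.

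Glucocorticoids induce Dusp1 and a set of further genes, and 13 of these were described, all tested. In TBI limma called 0 of them, where 3.99% of all tested genes were called. At an unadjusted p under 0.05 was 1 of the 13, and 1988 of all 10994 tested genes. With DEIX alone 3 of 13 rose and none fell, where 7.24% of all tested genes were called, with a list median of 0.38 against 0.02 over all tested genes. Fkbp5, the co-chaperone of the glucocorticoid receptor, was 20.0, 21.5 and 20.9 FPKM in control and 56.0, 73.2 and 50.4 in DEIX (change 1.46 ± 0.32, limma, adjusted p = 0.0258). The clock gene Per1 was 8.19, 5.94 and 5.57 FPKM in control and 21.5, 41.1 and 16.4 in DEIX (change 1.77 ± 0.40, limma, adjusted p = 0.0288). DEIX replicate 2 was highest of its group for Fkbp5 and Per1, as it was for Dusp1 and Nr4a1, but DEIX replicate 1 was highest for Il1r2 (146, 114 and 103 FPKM). Il1r2, the decoy receptor of interleukin-1, rose by 1.76 with DEIX (limma, adjusted p = 0.0168) and by 2.15 in TBI+DEIX over TBI (adjusted p = 0.0146), where it was the only gene of the 13 called, against 8.10% of all tested genes. The latter call was lost with only the 6 libraries compared (adjusted p = 0.144) and without TBI replicate 3. In TBI+DEIX against control Fkbp5, Cdkn1a, Il1r2 and Errfi1 rose, 4 of 13 where 30.0% of all tested genes were called. The calls of Fkbp5, Cdkn1a and Errfi1 were lost in 6 of 21, 6 of 21 and 8 of 20 alternative analyses, and Errfi1 reached 1 FPKM in no control library. Rescaled to an equal sum per library, the DEIX calls of Fkbp5 (adjusted p = 0.0909) and Per1 (adjusted p = 0.0645) were lost, and the DEIX calls of Fkbp5, Per1 and Il1r2 were all lost when any 1 control library was left out.

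Besides Fosb, 13 listed immediate early genes were too low to test. Of these, 1 that stood out in a single library is given here, chosen after its value was seen. The chemokine gene Cxcl2 was 5.94 FPKM in TBI+DEIX replicate 1 and at most 1.25 in the other 11 libraries, so this library was the highest for Cxcl2 as it was for Fosb, Egr1 and Jun. In the interaction limma called 0 genes of the lists above, and 0.200% of all tested genes. At an unadjusted p under 0.05 were 5 of the 15 further transcription factors and 5 of the 23 feedback and effector genes. So were 4 of the 13 glucocorticoid-induced genes, 1 of the 15 AP-1 partners, 0 of the 27 relay genes and 0 of the 12 heat shock genes. Over all 10994 tested genes 825 were.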

How the data were processed

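RNA of whole bone marrow was measured in 12 libraries, 3 per group, prepared with a directional kit from total RNA, per the labels' protocols. The authors deposited FPKM values per gene, and the submitters' processing notes name STAR 2.6, Cufflinks 2.2.1 and mm10. The annotation used is not given in the sources used here. Cufflinks values are estimates without read counts, so the depth of each library is unknown and no counting interval is given. All 21853 identifiers matched GENCODE vM21 on GRCm38. Values were analysed as log2(FPKM + 1) of the deposited FPKM, which understates changes of low genes. Genes with at least 1 FPKM in at least 3 of the 12 libraries (10994) entered 1 limma 3.58.1 model of 4 group means (R 4.3.3, lmFit, eBayes with trend, 8 residual degrees of freedom), with Benjamini-Hochberg adjustment over all of them at 0.05. The fit was tested on simulated data in which each gene had the same spread in every library, so the test does not cover an outlying library such as TBI+DEIX replicate 1. The members and all lists were chosen with earlier results of these data known. All 9 members are named. From each other list, genes called in a comparison are named, at most the 5 with the largest change, with untested or highly expressed genes where stated. Like genes are the 5 non-members with the highest Pearson r with the members' mean. Alternatives covered the pseudocount, the filter, scaling (TPM-like, quantile), library weights, the libraries in the fit, a replicate block, and leaving out each library. The TPM-like scaling without S100a8, S100a9 and Ngp was chosen after seeing the data.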

Additional observations from a re-analysis of the deposited data

How the results depend on the processing

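Of the members' log2 changes under alternatives, 746 kept direction and side of the threshold, 37 became called, 17 lost a call and 22 changed sign. The counts of members called were 0 (TBI minus control), 0 (DEIX minus control), 1 (TBI+DEIX minus TBI), 1 (TBI+DEIX minus control) and 0 (interaction). With only the compared groups they were 2, 1, 0 and 0, and this fit was not run for the interaction. On the TPM scale TBI+DEIX minus TBI and TBI+DEIX minus control gave 0 and 0. Without S100a8, S100a9 and Ngp in the sum, TBI+DEIX minus control gave 2 and the interaction 1, and with no filter TBI+DEIX minus control gave 0. Library weights gave 6, 4, 5, 6 and 3 in the same order, but their estimation stopped before convergence, with weights from 0.0498 (TBI+DEIX replicate 1) to 97.5 (control replicate 2). Leaving out 1 library gave 0 to 2, 0 to 2, 0 to 2, 0 to 3 and 0 to 1 members.

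Over all tested genes, the TBI minus control count of 439 became 675 with no filter, 134 with a mean of at least 5 FPKM, 1417 with the compared groups, 253 on the TPM scale, 291 on that scale without the 3 genes and 7017 with weights. The DEIX minus control count of 796 became 2057 with the compared groups, 282 and 408 on the 2 TPM scales and 5249 with weights. The TBI+DEIX minus TBI count of 891 became 0 with the compared groups, 157 and 488 on the TPM scales and 5532 with weights. The TBI+DEIX minus control count of 3299 became 2181, 1785 (TPM scale) and 6866. The interaction count of 22 became 11 with log2(FPKM + 0.1), 37 with no filter, 7 with a mean of at least 5 FPKM, 38 after quantile normalization and 1148 with weights. Leaving out 1 library gave 153 to 1337, 146 to 2394, 5 to 2836, 2004 to 4232 and 4 to 331 genes, each highest without TBI+DEIX replicate 1. The lowest counts came without control 1, control 2, TBI 3, control 2 and TBI 2. The cause was not tested.

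Signs changed with weights for Dusp1 in TBI minus control (0.069), Ier2 in DEIX minus control (0.040) and Jun in the interaction (-0.023), and after quantile normalization in TBI+DEIX minus control for Egr1 (0.14), Zfp36 (-0.024) and Nr4a1 (0.077). With 1 library left out, Ier2 in TBI minus control ran from -0.24 to 0.13. In DEIX minus control Fos ran from -0.39 to 0.078, Junb from -0.29 to 0.0071, Ier2 from -0.20 to 0.17 and Nr4a1 from -0.10 to 0.62. In TBI+DEIX minus control Egr1 ran from -0.78 to 0.40, Zfp36 from -0.024 to 0.47 and Nr4a1 from -0.23 to 0.089. In the interaction Jun ran from -0.12 to 0.56, Nr4a1 from -0.12 to 0.60 and Dusp1 from -0.44 to 0.22. In 18 same-numbered pairs the median correlation of deviations was -0.066 (-0.447 to 0.242), and 3 exceeded 0.1. The deviations also carry differences in marrow makeup, so they cannot show whether libraries of the same number shared a batch. A replicate block gave 474 genes and kept Junb (limma, adjusted p = 0.0322) in TBI+DEIX minus TBI. The number of libraries, 3 per group, and the unknown depth limit precision.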
